A study of Mus musculus with 18 samples.

Results

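The Taar5+ group held the libraries made from reporter-positive cells of the Taar5 line, chosen by their column names in the deposited table, and counted 7 of the 18 libraries of the series. The cells were sorted from the main olfactory epithelium (MOE), where the olfactory sensory neurons (OSNs) lie, of mice labelled strain C57BL/6, genotype TAAR5-Cre&L10-GFP and age postnatal day 11 to 14. The study's own reporting summary gives an older age, in weeks, and a mixed C57BL/6J and 129 background for the same line. In these mice Cre recombinase is made from the Taar5 transcript through an internal ribosome entry site placed after the stop codon. It switches on the Cre-dependent reporter L10-GFP. The 9 reporter-negative (control) libraries came from mice of the same genotype and age label, so both groups carried the Cre knock-in and the reporter. Cre acts for good, so a cell is marked if it made Taar5 at any earlier time. The labels do not say whether the 7 libraries came from separate animals, so their spread may be partly technical.

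OSNs detect odours at cilia that reach into the nasal mucus, and most mature OSNs express 1 receptor gene. The receptor belongs either to the large odorant receptor (OR) family or to the small family of trace amine-associated receptors (TAARs), which detect volatile amines. Binding activates the G protein of which Gnal encodes the alpha subunit, adenylyl cyclase 3 raises cyclic AMP, and a cyclic nucleotide-gated channel and then a calcium-activated chloride channel open.

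Values are TPM, the authors' length-corrected measure of the share of a gene's transcripts in a library, so levels can be set side by side between genes. How many reads lie behind a value is unknown, and no estimate of its counting error is given. The table listed 23359 gene symbols. A median of 11700 genes reached 1 TPM in a Taar5+ library, with 8451 in replicate 4 at the low end and 14634 in replicate 5 at the high end. Of all genes, 7177 were at 1 TPM or more in all 7 libraries, 8361 in some of them and 7821 in none, and 5033 were listed at 0 throughout. A mean of 100 TPM or more was reached by 1743 genes. Spearman's rho over all genes lay between 0.773 and 0.946 over the 21 pairs of libraries. It was a description across genes, which are not independent replicates.

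Replicates 4 and 5 stood apart from the other 5 libraries in which genes reached 1 TPM. The median of Spearman's rho with the other libraries was lowest for replicate 4 (0.831). Replicate 5 (0.859) was next, but close to the 0.868 to 0.895 of the rest. Of the genes at 1 TPM or more in a single library, 1528 of 2114 were found in replicate 5, whereas 1286 genes fell under 1 TPM in replicate 4 alone. In a bulk library, fewer cells of a type and less RNA per cell cannot be told apart.

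The cells had the defining markers of mature OSNs in every library. S100a5, a calcium-binding protein gene of mature OSNs at chr3:90608523-90611780, was the most abundant gene. Its level was 11850 TPM at the lowest, 73361 at the median and 102164 at the highest, and the mean was 70933 ± 29276 (SD, n = 7), or 7.09% of all TPM. The low value was that of replicate 5, and the other 6 libraries lay at 65551 or above. Omp, the olfactory marker protein gene and the classical label of mature OSNs, had 8597, 15909 and 18195 TPM at the lowest, median and highest library. Here replicate 4 was the lowest and replicate 5 the next lowest. The level of S100a5 was 4.33 times that of Omp at the median library, 1.11 times in replicate 5 and 11.9 times in replicate 4. Stoml3, a stomatin-like membrane protein gene, ranged from 2900 through a median of 5531 to 7921 TPM, and Pcp4l1, a small calmodulin-binding protein relative, from 1351 in replicate 5 through 3768 to 6716 TPM in replicate 4. Umodl1 was lower, at 318 to 998 TPM.

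The start regions of these markers are shown because these genes identify the sorted cells as mature OSNs. They are up to 250 bases before the RefSeq start on GRCm38.p6 (the assembly of mm10), written 5′ to 3′ on the gene's own strand, and they stop before the first transcribed base in GENCODE M21. Capitals mark the EBF core letters CCCNNGGG. The EBF core and the LHX core TAATTA, letters bound by the Ebf and Lhx2 factors of OSNs, were searched on both strands, which for these palindromes is the same search. The windows lie at chr3:90608272-90608521 (S100a5, plus strand), chr3:53488457-53488652 (Stoml3, plus strand), chr1:171196269-171196518 (Pcp4l1, minus strand) and chr17:30954433-30954639 (Umodl1, plus strand).
S100a5: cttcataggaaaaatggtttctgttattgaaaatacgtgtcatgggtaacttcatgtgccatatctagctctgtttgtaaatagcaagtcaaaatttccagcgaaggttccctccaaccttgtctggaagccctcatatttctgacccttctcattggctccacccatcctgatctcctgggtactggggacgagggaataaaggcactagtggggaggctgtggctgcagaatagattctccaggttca
Stoml3: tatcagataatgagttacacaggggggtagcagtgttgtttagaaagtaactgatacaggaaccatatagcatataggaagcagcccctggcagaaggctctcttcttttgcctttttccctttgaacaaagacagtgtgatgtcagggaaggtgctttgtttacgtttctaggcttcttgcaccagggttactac
Pcp4l1: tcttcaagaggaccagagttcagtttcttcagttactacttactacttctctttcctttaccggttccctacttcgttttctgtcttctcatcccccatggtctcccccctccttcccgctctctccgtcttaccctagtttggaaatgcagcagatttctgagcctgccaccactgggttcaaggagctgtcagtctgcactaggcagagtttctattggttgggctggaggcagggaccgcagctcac
Umodl1: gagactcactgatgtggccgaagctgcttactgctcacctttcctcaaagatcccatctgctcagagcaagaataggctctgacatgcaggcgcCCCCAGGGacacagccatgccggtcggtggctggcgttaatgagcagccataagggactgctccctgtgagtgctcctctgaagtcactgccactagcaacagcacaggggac
Among these 4 genes, Umodl1 alone had an EBF core in the full 250 bases, with its first base at -156 from the start, and none had an LHX core. Omp had no window in the table used. Of all 27025 genes with a window, 11.7% held the EBF core and 4.9% the LHX core. Of the 20 most abundant genes, 11 had a window, of which Gng13 and Cartpt held the EBF core (2 genes) and none the LHX core. Of the 15 Taar genes, 11 had a window, none with the EBF core and 1, Taar8b, with the LHX core. These matches are descriptions of letters and carry no test.

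The 20 genes of highest mean TPM together took 11.2% of replicate 5 and 19.2% to 24.4% of the other libraries. Besides S100a5, Omp, Stoml3 and Pcp4l1, they included a transduction gene, Gng13, the G protein gamma subunit of the OSN cascade, with 4821, 10364 and 14283 TPM at the lowest, median and highest library, the lowest being replicate 5. Calm2, a calmodulin gene, had a median of 5755 TPM, and Ppa1, an inorganic pyrophosphatase gene, a median of 6114 TPM. Energy supply was represented by Ckb, the brain creatine kinase (7081 TPM), and Cox4i1, a subunit of cytochrome c oxidase (3183 TPM). Cartpt, the precursor of a neuropeptide, had rank 16 by mean, with 1601 TPM at the lowest, 3660 at the median and 5918 at the highest. Replicate 5 was its lowest and replicate 7 its highest library. Tmsb4x, an actin-binding peptide gene, was among the steadier members, at 5224 to 8591 TPM. Of the 20 genes, 11 had their lowest value in replicate 5 and 8 their highest in replicate 4.

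**Figure D1:**
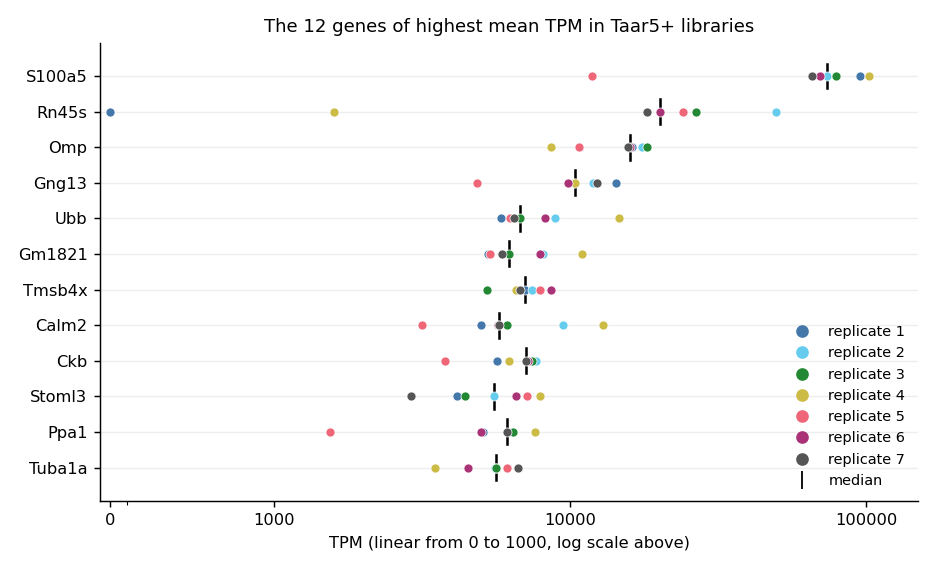
TPM of the 12 genes of highest mean TPM in each Taar5+ library. Points are libraries, coloured by replicate, and black bars are medians over 7 libraries on an axis that is linear near 0 and logarithmic above. S100a5 is the highest of the 12 in 6 libraries, and in replicate 5 only Rn45s is higher, and Rn45s spreads from 0 in replicate 1 to 49690 TPM in replicate 2.

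A few of the 20 cannot be read as single genes. Rn45s, the ribosomal RNA precursor, was listed at 0 in replicate 1, at 1586 TPM in replicate 4 and at 18126 to 49690 TPM in the others. Gm1821, a processed pseudogene of ubiquitin, had 5286 to 10941 TPM against 5813 to 14626 TPM for Ubb, a polyubiquitin gene. Of the 50-base stretches in the Gm1821 transcripts, 79.6% also occur in Ubb, so the split of reads between the pair is uncertain. The same holds for Tuba1a, an alpha tubulin, with 75.5% of its stretches found in other genes. Gng13 shares 43.0% with Chtf18, a gene that overlaps it on the other strand, and the authors' use of strand is not stated. Mir703 (1287 to 4518 TPM) is a gene of 109 bases, and TPM of so short a gene rest on a large length correction.

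The receptor genes of the cells came mostly from the Taar family. The 15 Taar genes summed to 1517 TPM at the lowest, 5775 at the median and 7804 at the highest library. The 1097 OR genes summed to 225, 619 and 5525 TPM. Taar genes were the larger class in 6 of 7 libraries, and replicate 5 was the exception, with 1517 Taar TPM against 5525 OR TPM. Taar TPM were 89.9% of all Taar and OR TPM at the median library, 96.5% in replicate 4 and 21.5% in replicate 5. On the log2(TPM + 1) scale the mean difference within libraries was 2.41 ± 2.19 (SD, n = 7; two-sided exact sign-flip permutation test, p = 0.0469, where the smallest possible p is 0.0156). The sort picked cells that had made Taar5, itself part of the Taar sum. It therefore favoured this direction in advance, and the test is no independent support for it. Without replicate 5 the difference was 3.12 (exact permutation p = 0.0312), without replicate 1 it was 2.61 (p = 0.0625), and without replicate 2, 3, 4, 6 or 7 it was 2.01 to 2.40 (p = 0.0938 each), so the result passed the threshold of 0.05 only with all 7 or without replicate 5.

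The Taar genes lie in 1 cluster at chr10:23920356-24109534 (GRCm38, GENCODE M21). Of its 15 genes, 14 were at 1 TPM or more in all 7 libraries and Taar1 was listed at 0 in all. Taar4 was the highest Taar gene in 7 of 7 libraries and Taar2 the next in 7 of 7. Taar4 had 756 TPM at the lowest, 1947 at the median and 3689 at the highest library, a mean of 2058 ± 967 (SD, n = 7), and ranked 39 by mean among all genes. Replicate 5 was the lowest and replicate 7 the highest. Taar2, the only member with 2 exons, had 121, 979 and 1518 TPM. Replicate 5 again stood lowest, and the other 6 lay between 607 and 1518 TPM. Taar5, whose locus carries the Cre, had 47.0 TPM in replicate 5, 227 at the median and 347 in replicate 7, and took places 5 to 11 among the Taar genes of a library. Taar4 was 7.29 to 16.1 times as high as Taar5, with the highest ratio in replicate 5, and Taar2 was 2.38 to 8.64 times as high.

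Below Taar2 the order was less fixed. Taar7f (median 554 TPM) and Taar7e (436 TPM) held places 3 and 4 in every library but changed places, Taar7f being higher in 4 of 7. Taar7e lay above Taar7d (311 TPM) in 7 of 7. Taar7d against Taar5 and Taar5 against Taar7a (194 TPM) were each split 4 to 3, so these neighbours did not differ beyond their spread. Taar8b had a median of 185 TPM, Taar9 of 114, Taar3 of 83.6 and Taar6 of 80.1, and the lowest were Taar7b at 55.6, Taar8c at 53.3 and Taar8a at 35.1 TPM. The share of Taar4 in summed Taar TPM was 39.6 ± 10.4% (SD, n = 7), from 19.2% in replicate 4 to 49.9% in replicate 5. Replicate 4 held the highest value of 8 of the 14 genes, whereas replicate 5 held the lowest of 10. Levels of the Taar7 and Taar8 genes are uncertain, since 29.5% to 53.9% of the 50-base stretches of the measured Taar7 genes and 50.9% to 72.5% of those of the Taar8 genes occur in other genes of the annotation. Taar2, Taar3, Taar4, Taar5 and Taar9 share 0%.

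**Figure D2:**
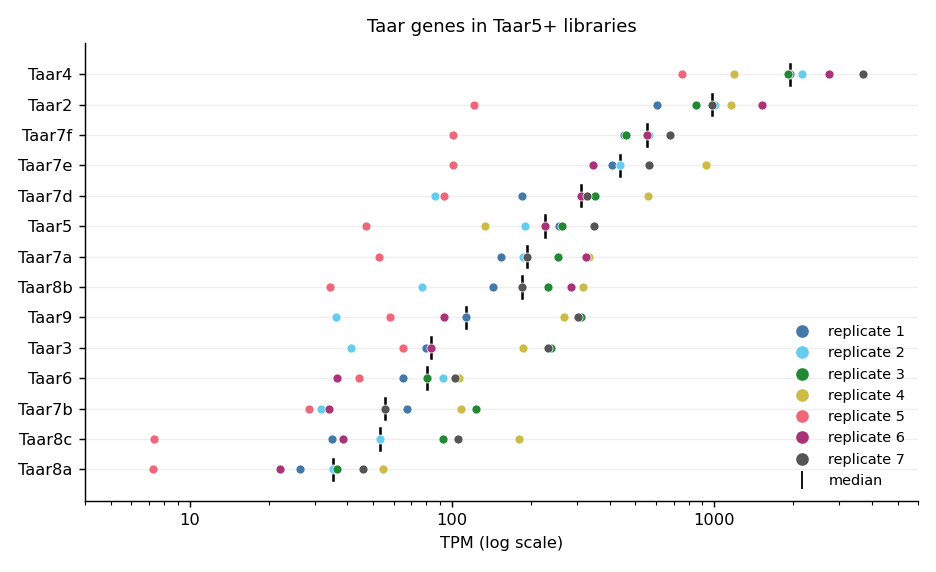
TPM (log axis) of the 14 Taar genes above 0 in each Taar5+ library, ordered by median (black bars), with points coloured by replicate. Taar4 is the highest and Taar2 the next in all 7 libraries, and replicate 5 lies at the low end of 10 genes.

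OR transcripts were present but scattered. No OR gene reached 1 TPM in all 7 libraries, 875 of 1097 did in at least 1, and 494 in a single library, which was replicate 5 for 437 of them. The number of OR genes at 1 TPM or more was 10 in replicate 4, 92 at the median and 812 in replicate 5. Of the 1033 OR genes above 0 anywhere, 751 had their highest value in replicate 5. The highest OR gene was a different one in each of the 7 libraries. Olfr15, in replicate 6, was the only one above 100 TPM (106 TPM), and the other 6 stood at 25.3 to 81.9 TPM. By median the leading OR genes were Olfr1348 (17.8 TPM), Olfr594 (11.0), Olfr640 (8.78), Olfr681 (8.27) and Olfr578 (7.02). Each of the 5 was at 1 TPM or more in 4 libraries and listed at 0 in at least 1. The 5 highest OR genes of a library took 87.2% of its OR TPM in replicate 4 and 5.26% in replicate 5.

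Other families that hold chemoreceptors were near 0. Their genes were taken by symbol, and whether each Ms4a gene serves as a chemoreceptor was not tested. The summed TPM was at most 4.67 for the 196 V1R and 13.9 for the 122 V2R genes of the vomeronasal system, 0.142 for the 6 Fpr genes, and 24.3 for the 16 Ms4a genes, whose largest sum was in replicate 5. Of 37 receptors for biogenic amines, a class added after the values had been seen, Drd2 alone was at 1 TPM or more in all 7 libraries. Drd2, the dopamine receptor of OSN terminals, had 18.5 TPM at the lowest, 37.9 at the median and 62.7 at the highest.

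The listed genes of the odour transduction cascade were all detected. All 9 were at 1 TPM or more in all 7 libraries, against 7177 of all 23359 genes. Gnal had 866, 1517 and 2069 TPM at the lowest, median and highest library, and Gnb1, a beta subunit, had 1307 TPM in replicate 5, 2176 at the median and 3412 in replicate 4. Adcy3, the adenylyl cyclase, ranged more widely, from 284 TPM in replicate 4 through a median of 1080 to 1612 in replicate 3. The channel subunit Cnga2 had 909, 1391 and 2148 TPM, and Cnga4 (median 630 TPM) and Cngb1 (118 TPM) followed. Ano2, the chloride channel, had 206, 396 and 591 TPM. The median SD of log2(TPM + 1) over the 9 genes was 0.49, against 0.62 over the 7732 genes with a mean of 10 TPM or more and 0.39 over the 1743 genes with a mean of 100 TPM or more, so its place depends on the genes it is set beside.

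Genes that end the response or bring receptors to the surface were also measured. Of 7 response termination genes in the table, 5 were at 1 TPM or more in all libraries, led by Pde4a (median 278 TPM) and Pde1c (270 TPM), the phosphodiesterases of OSNs, whereas Adrbk2, a receptor kinase gene, was listed at 0 in 5 libraries and reached 2.75 TPM in replicate 5. All 4 trafficking genes in the table were at 1 TPM or more in all 7. Of all 23359 genes, 7177 met the same rule. Ric8b, which acts on the G protein alpha subunit, had 620, 1112 and 1680 TPM, and the receptor transport protein gene Rtp1 had 530, 858 and 1100 TPM. Ric8b was lowest in replicate 5 and Rtp1 in replicate 2, and Rtp2 was at 328 TPM or more in all 7.

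Among 11 factors of receptor choice, all were at 1 TPM or more in all 7 libraries, against 7177 of all 23359 genes. Ebf2 had the highest median (372 TPM), followed by Atf5 (365), Ebf4 (268) and Ebf1 (239), and Lhx2 stood at 80.4 TPM. Atf5, a factor of the unfolded protein response, ranged from 203 TPM in replicate 5 to 816 in replicate 1. Lbr, the lamin B receptor whose loss marks OSN nuclei, had 5.10 to 36.0 TPM, the most in replicate 5. Of the dorsal zone genes, Acsm4 had 759, 1448 and 2462 TPM and Nqo1, which marks the dorsal MOE, 126, 209 and 675 TPM, with the highest Nqo1 value in replicate 5. Of the ventral zone genes, Ncam2 had 16.3, 29 and 42.8 TPM, and Nfia, Nfib and Nfix had medians of 0.886, 2.22 and 6.68 TPM.

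Most axonal and synaptic genes listed were present in all libraries. Of 14 guidance genes, 11 were at 1 TPM or more throughout. The adhesion genes Kirrel2 (243, 720 and 1081 TPM), Cntn4 (median 504 TPM) and Ncam1 (512 TPM) led, while Kirrel3 (11.0 TPM) and Nrp2 (14.6 TPM) were low. All 10 presynaptic genes were at 1 TPM or more throughout, with Snap25 at 382, 884 and 1135 TPM and Slc17a6, the vesicular glutamate transporter of OSNs, at 113, 248 and 363 TPM. Channel and cilium classes were added after the values had been seen. Of 95 potassium channel genes, 17 were at 1 TPM or more in all libraries, and Kcnmb3, an accessory subunit, led with a median of 741 TPM. Among 13 sodium channel genes, 6 were present throughout, and Scn3b (222 TPM), Scn4b (158) and Scn9a (83.6) had the highest medians. Of 21 genes of the BBSome and intraflagellar transport, which carry cargo in cilia, 18 were present throughout, led by Ift43 (median 511 TPM). Of 26 calcium channel genes 5 were, led by Cacnb3 (361 TPM). Of all 23359 genes, 7177 were present throughout, a larger share than of the potassium or calcium channel genes.

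Maturity markers other than those above were mixed. Of 9 immature OSN genes, 8 were at 1 TPM or more in all libraries, against 7177 of all 23359 genes. Stmn1 had 825, 917 and 1619 TPM and Gap43, the growth cone protein gene, 257, 401 and 563 TPM, with Stmn1 highest in replicate 5 and Gap43 in replicate 4. Gng8, the gamma subunit of immature OSNs, was lower, at 18.4, 50.1 and 108 TPM, so Gng13 exceeded it in every library. The 6 progenitor genes summed to 22.5 TPM or less except in replicate 5, where they reached 139 TPM and Neurod1 reached 65.0 TPM.

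Housekeeping classes set the scale of the profile. Genes of oxidative phosphorylation summed to 38215 TPM in replicate 5 and to at most 67362 TPM in replicate 1, so they held a larger part of the library than ribosomal protein genes (9582 to 27200 TPM) in all 7. Proteasome subunits summed to 9392 TPM in replicate 5 and at most 13587 TPM in replicate 4, tubulins to 7383 to 13682 TPM and histones to 5039 to 7393 TPM. Of the 80 ribosomal protein genes, Rpl41 had the highest median (2525 TPM) and Rpl10a the next (793 TPM, range 308 to 1007), while Rpl10 had 83.0 TPM. The reporter is labelled L10-GFP, and whether it adds to the values of Rpl10 or Rpl10a was not tested.

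Genes of other MOE cells were found at levels that varied by library. The 6 sustentacular cell genes, which mark the supporting cells, summed to 212 TPM in replicate 7, 740 at the median and 17274 in replicate 5, where the next highest was 5353 TPM in replicate 1. In controls the same sum ran from 337 TPM through a median of 1552 to 10878 in control replicate 2, where the next highest was 2134 TPM. Cyp2g1, a cytochrome P450 of these cells, was at 11.3, 152 and 6113 TPM, and Cbr2, a carbonyl reductase, at 104, 423 and 5897 TPM. Secretory gland genes summed to 200 TPM in replicate 4, 830 at the median and 12815 in replicate 5, against 234 TPM at the lowest and 928 at the median in controls. The highest control was again replicate 2, at 76898 TPM, and the next was at 2769 TPM. Bpifb9b was listed at 0 in replicates 2 and 6 and reached 5772 TPM in replicate 5, although 71.4% of its 50-base stretches occur in Bpifb9a.

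Rarer cell types gave less. The horizontal basal cell genes Krt5, Krt14 and Trp63 summed to 17.5 TPM or less outside replicate 5, and were all at 0 in replicates 2 and 6. Blood and immune genes summed to 19.1 to 1884 TPM. Most of that was the globin Hba-a1 (5.71, 502 and 1415 TPM, highest in replicate 1), whereas Ptprc, the pan-leukocyte marker, was listed at 0 in 5 libraries and reached 2.1 TPM in replicate 5. All 9 blood and immune genes in the table reached 1 TPM in at least 1 library, and 1 did in all 7. Their mean log2(TPM + 1) was 6.11 in replicate 5, 4.98 in replicate 1 and 0.50 to 3.42 in the others. The 6 endothelial genes summed to 4.81 to 48.4 TPM, the most in replicate 5. Of these, 2 were at 1 TPM or more in all 7 libraries and 3 in at least 1, whereas Cdh5 was listed at 0 in 6. Replicate 5 held the highest sum of the progenitor, horizontal basal, sustentacular, microvillar, gland, glial, blood and immune, endothelial and mesenchymal lists, and their part in its lower Taar and S100a5 levels was not tested. Immediate early genes were also highest there, with Fos, a gene induced by activity and by handling, at 115.1, 323 and 962 TPM. Xist was above 0 in 5 libraries, a Y-linked gene in 6 and both in 4.

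**Figure D3:**
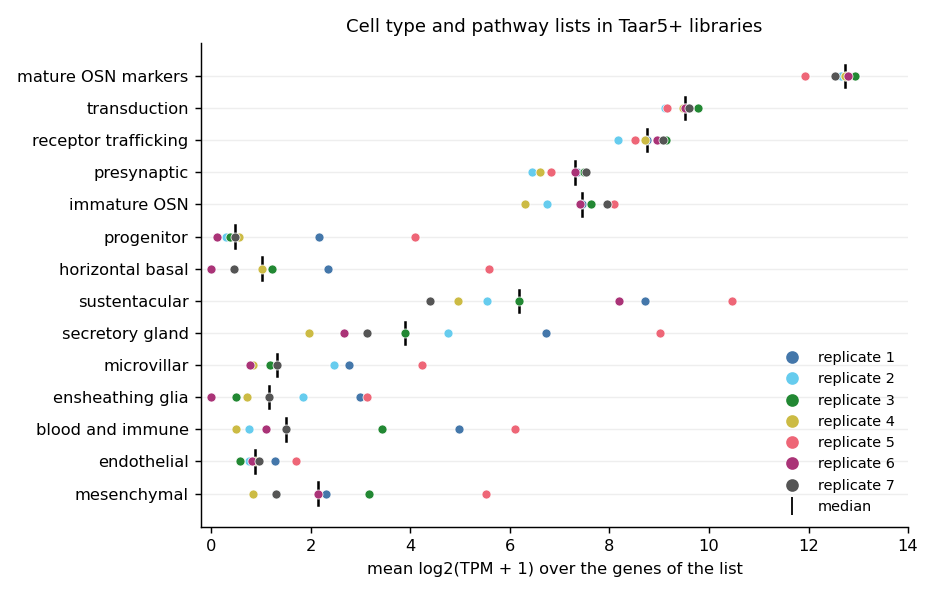
Mean log2(TPM + 1) over the genes of each list in each Taar5+ library, with points coloured by replicate and black bars for medians. Neuronal lists cluster within a narrow range, whereas the sustentacular and secretory gland lists run from 4.4 to 10.5 and from 1.97 to 9.01.

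The spread between libraries differed by gene class. Over the 1743 genes with a mean of 100 TPM or more, the SD of log2(TPM + 1) had a median of 0.39. The 10 steadiest were Dnajb6, Rnh1, Timm13, Nhp2l1, Hnrnph1, Sdr39u1, Tmem9, Zfand2b, Edf1 and Ywhab. Dnajb6, a chaperone gene, kept within 128 to 144 TPM (SD 0.07), and Rnh1, the ribonuclease inhibitor gene, within 388 to 462 TPM (SD 0.09). At the other end, 9 of the 10 most variable were Rn45s or small RNA genes. These were Mir31 (SD 5.58), Rn45s (5.51), Snora64 (4.92), Snora31 (4.89), Snora33, Snora28, Mir546, Scarna3b and Snora65, and the tenth was Bpifb9b (4.71). Snora33 was at 5288 TPM in replicate 1 and listed at 0 in the other 6. Mir31 was at 4531 TPM in replicate 4, 1591 in replicate 7 and listed at 0 in the other 5. All of the 50-base stretches of Mir31, Snora64, Snora33, Snora28, Mir546 and Snora65 lie in transcripts of other annotated genes, such as Rps2 for Snora64 and Rps12 for Snora33, so these values cannot be assigned to the small RNAs. Of 769 small RNA genes in the table, a class added after the values had been seen, 2 were at 1 TPM or more in all 7 libraries. The same was true of 1 of 9 globin genes, Hba-a1.

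The spread of the Taar genes depended on replicate 5. The median SD over the 14 genes was 0.97 with all 7 libraries and 0.56 without replicate 5, against 0.62 and 0.63 over the 7732 genes of mean 10 TPM or more. Both Taar values lay above the 0.39 found with all 7 libraries over genes of mean 100 TPM or more. That set leaves out Taar6, Taar7b, Taar8a and Taar8c, whose means were lower, so it is not a like reference. Sustentacular genes had a median SD of 2.17, and 1.70 without replicate 5. Genes of oxidative phosphorylation had 0.39 and proteasome subunits 0.34. These medians are descriptions with no test.

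**Figure D4:**
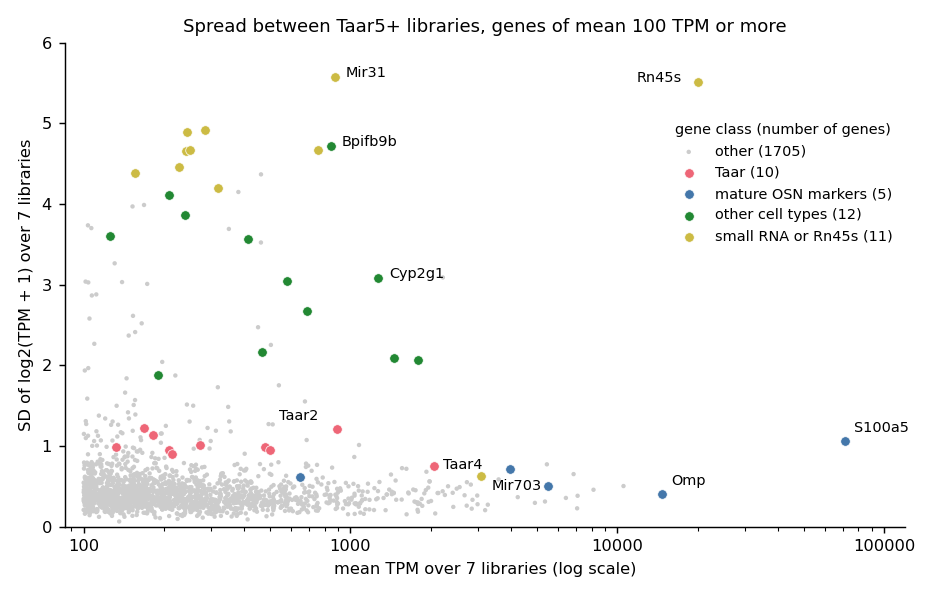
SD of log2(TPM + 1) over 7 libraries against mean TPM (log axis) for the 1743 genes with a mean of 100 TPM or more, coloured by gene class. Most genes lie near 0.39, while Rn45s, the small RNA genes other than Mir703 (0.63) and genes of other cell types, such as Cyp2g1 and Bpifb9b, lie high above them.

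A principal component analysis of the 7732 genes of mean 10 TPM or more described how genes moved together. The first component held 45.4% of the variance and the second 18.6%. The first set replicate 4, at a score of -128, against replicate 5, at 63.2, with the other 5 between -22.1 and 32.8. The genes at the replicate 5 end were the globins Beta-s and Hbb-b2, Cyp2f2, a cytochrome P450, Bpifb9b and Rgs5, a gene of pericytes. At the replicate 4 end stood Mir31, Gm12238, Resp18, Olfr1200 and Snora28. Olfr1200 was at 72.3 TPM in replicate 4, the highest OR gene there, and at 10.5 TPM in replicate 5. Without replicate 4 the first component held 38.6%, without replicate 5 it held 49.6% and without replicate 2 it held 53.9%. On the second component, replicates 2 and 6 scored -52.8 and -50.3, against 51.7 for replicate 5.

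Relations between measures were tested across the 7 libraries, 10 in all, with two-sided exact permutation tests over all 5040 pairings and Benjamini-Hochberg adjustment. Summed OR TPM rose with the sustentacular list (Pearson's r = 0.92, exact p = 0.00397, adjusted p = 0.0198; Spearman's rho = 0.75, exact p = 0.0663, adjusted p = 0.221). With replicates 1 and 5 left out, which lay farthest from the median of summed OR, r was 0.70 (exact p = 0.217), so the relation rests on those libraries. Leaving out replicate 1, 2, 4 or 5 alone ended the call (adjusted p = 0.0833, 0.0833, 0.111 and 0.25, exact permutation). Summed OR TPM also rose with the blood and immune list (r = 0.82, exact p = 0.0196, adjusted p = 0.0491; rho = 0.75, exact p = 0.0663), and r fell to 0.14 without the same libraries. The number of genes at 1 TPM or more rose with summed OR TPM (r = 0.85, exact p = 0.0153, adjusted p = 0.0491; rho = 0.82, exact p = 0.0341, adjusted p = 0.221), with r of 0.29 once replicates 4 and 5 were left out. That number counts the OR genes themselves, 10 in replicate 4 and 812 in replicate 5, so the measures overlap. The relation was not tested with OR genes taken out of the count. The fourth relation past the threshold was within the Taar family. Taar5 rose with Taar4 (r = 0.92, exact p = 0.00397, adjusted p = 0.0198; rho = 0.68, exact p = 0.11, adjusted p = 0.274), and r was 0.57 (exact p = 0.325) without replicates 4 and 5. Leaving out replicate 1, 2, 4, 5 or 7 alone ended the call for Taar5 with Taar4 (adjusted p = 0.0556 to 0.25, exact permutation), for summed OR with blood and immune (0.0774 to 0.497) and for gene number with summed OR (0.0625 to 0.497).

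The other 6 relations did not pass. Summed OR against summed Taar had r = -0.79 (exact p = 0.0353, adjusted p = 0.0706; rho = -0.46, exact p = 0.302), and r was 0.20 without replicates 1 and 5. Taar5 against Taar2 had r = 0.79 (exact p = 0.104, adjusted p = 0.134) and rho of 0, and r turned to -0.34 without replicate 5. Taar5 against Taar6 had r = 0.38 (exact p = 0.438, adjusted p = 0.438) and rho = 0.14. Summed Taar against the mature OSN markers had r = 0.84 (exact p = 0.107, adjusted p = 0.134) and rho = 0.21, and r turned to -0.36 without replicate 5. The number of genes at 1 TPM or more against summed Taar had r = -0.72 (exact p = 0.0732, adjusted p = 0.122; rho = -0.46). Mature against immature OSN markers had r = -0.48 (exact p = 0.29, adjusted p = 0.322; rho = -0.36).

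**Figure D5:**
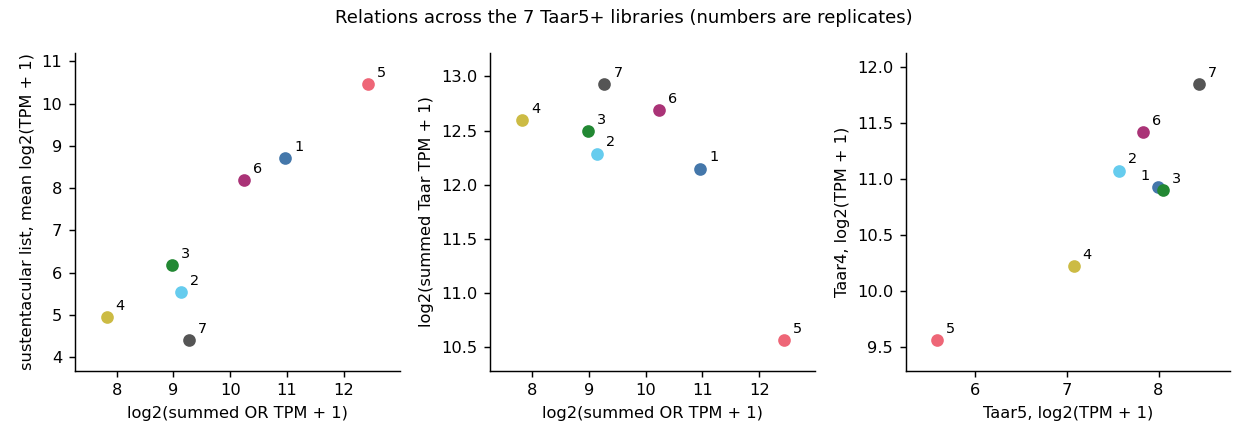
Selected relations, of the 10 tested, across the 7 Taar5+ libraries, numbered by replicate, all on log2 scales: summed OR against the sustentacular list (r = 0.92), summed OR against summed Taar (r = -0.79) and Taar5 against Taar4 (r = 0.92). Replicate 5 lies at an end of each panel.

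The breadth of the profile was set beside that of the 9 controls. Taar5+ libraries had 11315 ± 2027 genes at 1 TPM or more (SD, n = 7). The controls had 11489 ± 2863 (SD, n = 9), and the Taar5+ minus control difference of -174 genes was smaller than the spread between libraries (two-sided exact permutation p = 0.899). The 100 most abundant genes of a library took 34.6 ± 4.0% of its TPM (SD, n = 7), from 27% in replicate 5 to 39.5% in replicate 2. In controls they took 30.7 ± 4.68% (SD, n = 9), from 26.2% to 42.2%. The difference of 3.86 percentage points did not pass the threshold (two-sided exact permutation p = 0.102). It did so without replicate 5 (5.11 points, p = 0.031, exact permutation) and without control replicate 2 (5.3 points, p = 0.00653, exact permutation), the control with the fewest genes at 1 TPM or more (5288). In that control, 13 Taar genes above 0 hold values equal to those of control replicate 1.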

How the data were processed

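Reporter-positive cells were sorted from dissociated MOE, and the authors made libraries with Smart-seq2, a full-length cDNA method with PCR and no molecular identifiers. Per the submitters' processing notes, reads were trimmed with Trimmomatic 0.36, mapped to mm10 with HISAT2 2.1.0 and quantified with Cufflinks 2.2.1. The authors deposited TPM values per gene symbol. The annotation, strand setting, treatment of reads matching several genes and the step to TPM are not given in the sources used here, and TPM keep no depth. Because a 0 may stand for an estimate that failed, genes are described as listed at 0.

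From the table, 488 rows repeating an earlier symbol were summed with it, giving 23359 symbols from 23847 rows. Levels were analysed as log2(TPM + 1) in Python 3.11.15 (numpy 2.4.6, pandas 2.3.3). Exact permutation tests enumerated every split, sign flip or pairing, with a threshold of 0.05. They were tested on simulated data, as was the component analysis. Positions and shared 50-base stretches, counted on either strand, are from GENCODE M21 on GRCm38, where 92.9% of the symbols were found, and start windows are from RefSeq. No gene-by-gene test was made. The Taar5+ group, gene lists and tests were chosen with earlier results of these data known, and the channel, cilium, amine receptor, small RNA and globin classes after the values had been seen. Named genes were the 20 of highest mean TPM, every Taar gene, the 5 OR genes of highest median, the 10 most and 10 least variable genes of mean 100 TPM or more, 5 genes at each end of the first component, the leading members of each list, and any singled out by their values; 1 of the 20 is not reported here. Alternatives were other pseudocounts, filters, thresholds and scalings, and leaving out each library.

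Equal replicate numbers are not known to pair Taar5+ and control libraries, and the libraries were not treated as paired: the correlation of their deviations over genes was over 0.1 in 5 of 7 pairs and -0.016 at the lowest. In control replicate 2, 13 Taar genes hold the values of replicate 1, so control Taar levels are not reported. The Taar6 line was not analysed here.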

Additional observations from a re-analysis of the deposited data

Results flagged for a closer look

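Of 52 sets of values over the 7 Taar5+ libraries (lists, totals and marker genes), 12 had 1 library far from the others, by a gap to its neighbour above Dixon's critical value. Chance gives about 1 in 20, or 2.6 of 52, for unrelated sets. These sets all come from the same 7 libraries and many share genes, so the 12 cannot be judged against that number. Replicate 5 was that library in 9. There Taar2 was at 6.93 on the log2(TPM + 1) scale against 9.25 to 10.6 in the others, S100a5 at 13.5 against 16 to 16.6, and summed Taar at 10.6 against 12.1 to 12.9. As mean log2(TPM + 1), the mature OSN markers stood at 11.9 against 12.5 to 12.9, and oxidative phosphorylation at 8.10 against 8.48 to 8.75. The same mean was high for horizontal basal genes, at 5.59 against 0 to 2.35, for OR genes, at 1.99 against 0.038 to 0.72, for OR pseudogenes, at 1.65 against 0.0029 to 0.64, and for Ms4a genes, at 0.76 against 0 to 0.26.

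In replicate 1, Rn45s was at 0 against 10.6 to 15.6 on the log2(TPM + 1) scale. In replicate 4, calcium channel genes had a mean of 0.84 against 1.21 to 1.4. In replicate 6, V1R genes had a mean of 0.021 against 0 to 0.0087, all near 0.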

How the results depend on the processing

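For 20 results, 173 alternative values were computed, of which 50 changed direction, side of the threshold or size. Ranges below are over leaving out 1 library each. Taar minus OR was 2.01 to 3.12 (log2). The difference in gene number was -949 to 304 genes, in the fit with the replicate block 52.3 genes (exact permutation p = 0.938), and 172 genes without Taar, OR and ribosomal protein genes, so its sign is not fixed. The replicate block did not change the call for the 100 most abundant genes (3.3 points, exact permutation p = 0.0625), and without a library it was 3.04 to 5.3 points. Equal numbers are not known to pair the libraries, and 4 of 7 correlated best with their own number. Pearson's r ran from 0.84 to 0.98 for summed OR with sustentacular, 0.63 to 0.90 with blood and immune, -0.85 to -0.35 with summed Taar, 0.83 to 0.94 for Taar5 with Taar4, -0.34 to 0.88 with Taar2, -0.15 to 0.67 with Taar6, -0.62 to -0.044 for mature with immature markers, -0.36 to 0.96 for summed Taar with mature markers, and, for gene number, -0.84 to -0.18 with summed Taar and 0.66 to 0.92 with summed OR. The 4 relations past the threshold lost it (adjusted p from exact permutation tests) without replicate 1, 2, 4 or 5, and all but OR with sustentacular also without 7 (adjusted p = 0.0556 to 0.497), where fewer libraries also enlarge p. Summed OR with blood and immune (r = 0.77, adjusted p = 0.0813) and with gene number (r = 0.85, adjusted p = 0.0509) lost it at a pseudocount of 0.1, and both did (r = 0.82 and 0.85, adjusted p = 0.0501) when TPM were divided by the TPM left without receptor and ribosomal genes. The count of 7177 genes ran to 8463, and the first component from 38.6% to 53.9%. It was 51.0% at a pseudocount of 0.1, 35% with genes scaled and 46.9% without small RNA genes and Rn45s, an alternative chosen after seeing the data. The cause was not tested. Unknown depth limits what a value of 0 shows.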
